A study of Mus musculus with 4 samples.

Results

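Histone lysine methyltransferases and demethylases were examined in RNA-seq of primary mouse embryonic fibroblasts (MEFs) with and without *Phf2*. Members were chosen by gene symbol, with earlier results of these data known. They were the *Kdm1* to *Kdm8*, *Jmjd*, *Kmt2* to *Kmt5*, *Setd*, *Smyd1* to *Smyd5* and *Prdm* families together with *Ezh1*, *Ezh2*, *Nsd1*, *Whsc1*, *Whsc1l1*, *Dot1l*, *Ash1l* and *Jarid2*, without *Kdm7a* and *Kdm5d*. This gave 62 of the 24391 gene symbols in the count table, and 57 of them had enough reads to be tested. The other 5 were *Kdm4d*, *Prdm12*, *Prdm13*, *Prdm14* and *Smyd1*. Each of these had at most 7 reads in any library, and *Prdm13* had 0 in all 4, where a count of 0 allows a level of up to 0.145 CPM (reads relative to the TMM-scaled library total).

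The question of the experiment was whether loss of Phf2, a JmjC-domain protein that binds trimethylated H3K4, changes transcription in MEFs. All 4 libraries came from cells of E13.5 embryos with the genotype *Phf2* flox/flox, ERCre/+, so that both groups carried the floxed alleles and a tamoxifen-inducible Cre expressed from *Rosa26*. The 2 *Phf2* KO libraries were labelled as treated with tamoxifen, and the 2 wild-type (WT) libraries as not treated with it. The protocol text is nevertheless worded alike for all libraries and describes quiescent cells kept for 7 days in medium with 2% charcoal-treated serum, with 4-OHT (4-hydroxytamoxifen, the active form of tamoxifen) at 0.5 µM. No library had 4-OHT without recombination, so that the drug, active Cre and loss of *Phf2* cannot be told apart. The labels do not say which libraries came from separate embryos. The counts of sex-linked genes given below show that replicates 1 and 2 came from embryos of different sex in each group. With genotype alone in the fit, the p-values therefore measure the spread between 2 such libraries. With the replicate number also in the fit, that difference is removed and 1 residual degree of freedom is left. The edgeR p-values then rest mainly on a variance pooled over genes and not on a spread between embryos. Whether the WT and *Phf2* KO libraries of the same number share an embryo is not stated.

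Histone methylation is written by enzymes with a SET domain, or by the unrelated Dot1l, and removed by the amine oxidases Kdm1a and Kdm1b or by JmjC-domain dioxygenases. Methylated H3K4 marks promoters and enhancers, H3K36 and H3K79 methylation mark transcribed genes, and H3K27 and H3K9 methylation are found in repressed chromatin. The PRDM proteins carry a SET-related domain next to zinc fingers, and several of them act as sequence-specific factors without known enzyme activity.

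The libraries held between 21094743 and 26094268 counts. *Phf2* itself stood at 134.6 and 141.8 CPM in WT replicates 1 and 2, compared with 70.2 and 89.8 CPM in *Phf2* KO, that is 57.9% of WT. With genotype alone in the fit, edgeR did not call even this difference (log2 fold change -0.79 ± 0.14, adjusted p = 0.999), whereas DESeq2 did (adjusted p = 0.00321), as did edgeR with the replicate number in the fit (adjusted p = 7.67e-19). The reads were counted over whole genes, so any reads from outside the deleted part stay in this value. Their part in the remaining 57.9%, and that of any cells without recombination, was not tested. Collagen and other fibroblast markers were abundant in each library, with a summed level between 73624 and 87936 CPM over 13 genes, and epithelial and germ cell markers summed to under 1 CPM. Replicate 1 and replicate 2 differed in sex in both groups. *Xist*, the RNA of the inactive X chromosome, had 10042 reads in WT replicate 1 and 8336 in *Phf2* KO replicate 1, against 3 and 12 in the replicates 2. The Y-linked *Ddx3y* had 6 and 10 reads in the replicates 1, against 1271 and 1295. Macrophage markers were also unequal, and 14 of 14 were called higher in replicate 1 by edgeR, against 13.6% of all genes (summed 3936 and 862 CPM in WT, 4494 and 1361 CPM in *Phf2* KO). Because of these differences the replicate number was also used as a term in the fit, and as a comparison of its own. With it in the fit, edgeR also called 8 of the 14 macrophage markers higher in *Phf2* KO, against 5.77% of all genes (0 with genotype alone). Of the 4 neural markers, 2 were called higher (*Tubb3* and *Nes*). Called lower, against 5.20% of all genes, were 2 of 13 fibroblast markers (*Col5a1* and *Lum*) and 1 of 2 endothelial markers tested (*Kdr*). The other endothelial marker had a log2 fold change of 0.09. *Des*, the 1 muscle marker tested, was also called lower. The part of these shifts in the members' values was not tested.

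Per length, the members spanned a wide range of levels. RPKM (CPM per kilobase of annotated exon) could be computed for 61 members, of which 33 averaged at least 5 RPKM over the 4 libraries and 12 averaged under 1. By the mean over the 4 libraries, the H3K9 demethylase *Kdm4a* was the highest at 29.9 RPKM, though not in WT alone. It had 29.8 ± 0.864 RPKM in WT and 30.0 ± 0.637 in *Phf2* KO (SD, n = 2). It was followed by the H3K4 demethylase *Kdm5c* (30.1 ± 8.57 and 28.5 ± 9.31), the H3K27 demethylase *Kdm6b* (27.4 ± 4.00 and 28.5 ± 1.07), the H4K20 methyltransferase *Setd8* (23.8 ± 1.39 and 22.3 ± 0.687) and the H3K36 demethylase *Kdm2a* (22.5 ± 0.353 and 21.3 ± 0.636). Neighbours in this order were not resolved, since the libraries of each gene overlapped those of the next, but each *Kdm4a* library was above each *Setd8* and *Kdm2a* library. With the length of the longest transcript, only the order of *Kdm4a* over *Kdm2a* stayed. *Setd8* then had 36.5 RPKM in WT replicate 2, above *Kdm4a* in WT replicate 1 at 36.2. Over the whole order, 49 of 60 neighbouring pairs overlapped.

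**Figure D1:**
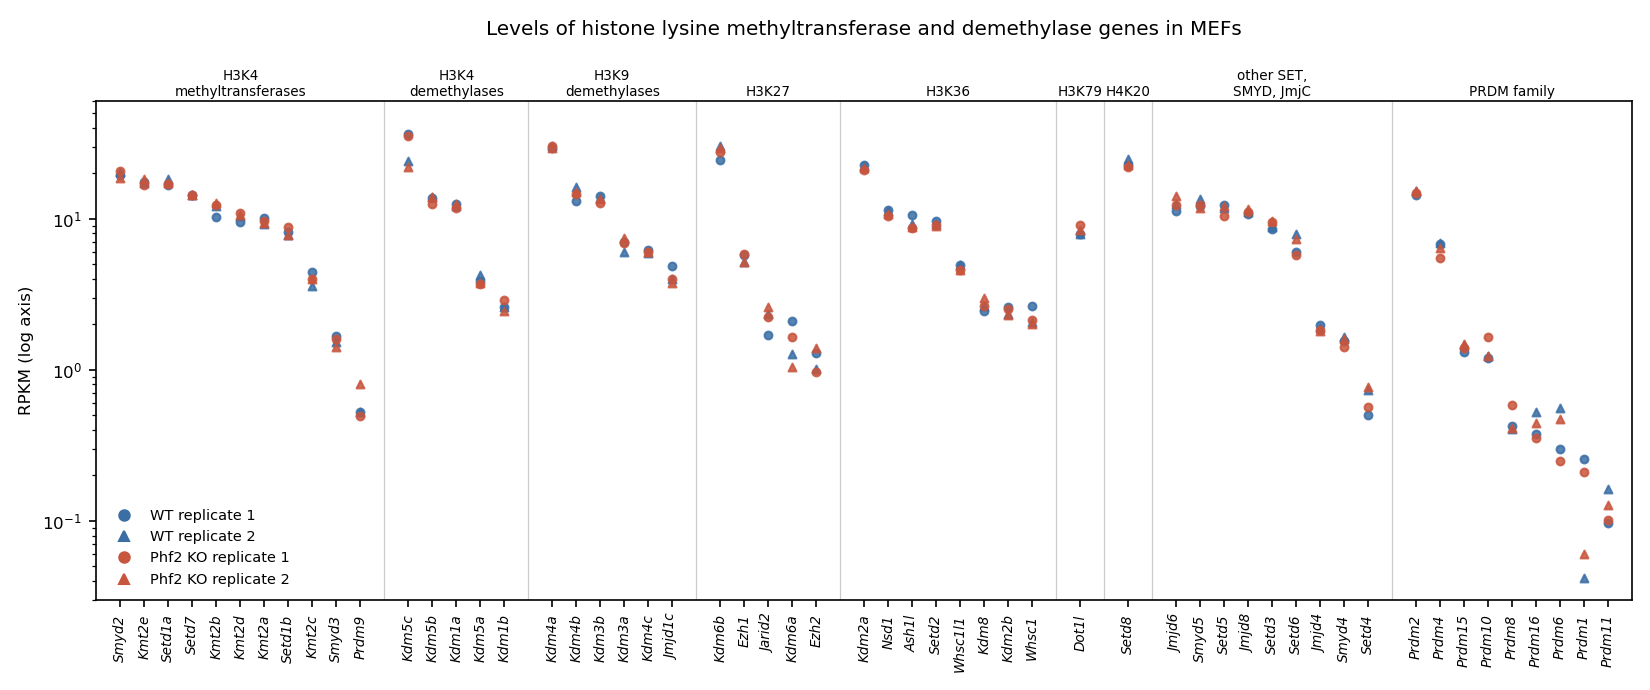
RPKM of 55 members that were tested and have an annotated length, on a log axis, in role groups. The groups are named for a histone residue, except the PRDM family and the other SET, SMYD and JmjC proteins. Each library has 1 symbol (circles for replicate 1, triangles for replicate 2, blue for WT, red for *Phf2* KO). *Kdm5c*, *Kdm6a* and *Prdm1* show circles above triangles in both genotypes, and the WT and *Phf2* KO symbols of most other members lie close together.

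Within families the levels were unequal. *Ezh1* and *Ezh2*, the alternative catalytic subunits of Polycomb repressive complex 2 (PRC2), stood at 5.46 ± 0.391 and 1.15 ± 0.197 RPKM in WT, a ratio of 4.78 ± 0.477 (SD, n = 2), or 3.62 with the length of the longest transcript. In *Phf2* KO the ratio was 6.04 in replicate 1 and 3.69 in replicate 2. Of the H3K27 demethylases, *Kdm6b* exceeded *Kdm6a* by 17.7 ± 8.43 in WT. *Kdm2a* exceeded *Kdm2b* by 9.17 ± 0.540, and *Kdm1a*, the catalytic subunit of the CoREST complex, exceeded its relative *Kdm1b* by 4.76 ± 0.0974, again as RPKM ratios in WT. With the length of the longest transcript these 3 ratios were 13.4, 4.29 and 7.27, so their size depends on the length used. Of the PRDM family, *Prdm2* was the highest (14.8 ± 0.604 RPKM in WT) and *Prdm4* stood at 6.89 ± 0.0913, whereas *Prdm1*, *Prdm6*, *Prdm8*, *Prdm11* and *Prdm16* were all under 1 RPKM. The meiotic H3K4 methyltransferase *Prdm9* averaged 0.524 ± 0.00177 RPKM in WT, with 56 and 60 reads, while the germ cell markers *Ddx4*, *Dazl* and *Sycp3* were each below 0.4 CPM.

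No member was called between *Phf2* KO and WT. With edgeR's quasi-likelihood test and adjustment over all 13668 genes tested, 0 of 57 members were called at an adjusted p of 0.1, against 0.00732% of all genes, which is 1 gene, so that this fit called next to nothing in the table and missed *Phf2*. None of the 57 had an unadjusted p under 0.05 either, against 4.21% of all genes. DESeq2 called 0 of the 58 members it adjusted (0.399% of all genes) and limma-voom called 0. With the replicate number in the edgeR fit, 11.0% of all genes were called (5.77% higher and 5.20% lower in *Phf2* KO) and 0 of 57 members, and DESeq2 with the same term called 3.67% of the genes it adjusted and 0 of 40 members. The unadjusted p was then under 0.05 for 6 members, or 10.5%, against 19.6% of all genes. These 6 were *Ash1l*, *Jarid2*, *Jmjd1c*, *Kdm6a*, *Kmt2b* and *Prdm4*.

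The intervals give the range of change that each fit allowed. The log2 fold change of *Phf2* KO over WT had a median of -0.02 over the members and ranged from -0.37 to 0.31, with 26 members above 0 and 31 below, while the median over all genes was 0.01. The 95% interval lay inside a 1.5-fold change in either direction for 41 of 57 members, or 71.9%, compared with 52.8% of all genes tested. With the replicate number in the fit it did so for 51 of 57, or 89.5%, compared with 74.3%. For the other members the interval reached beyond 1.5-fold, and a missed threshold does not show that their levels were equal. Interval width depends on the number of reads, and 38 of 57 members averaged at least 20 CPM, against 6994 of 13668 genes. At that level the median half-width on the log2 scale was 0.246 for members and 0.287 for all genes. With the replicate number in the fit these were 0.165 and 0.173. The shares within 1.5-fold were not compared at equal level. The intervals with the replicate number in the fit rest on 1 residual degree of freedom and mainly on a variance pooled over genes. They therefore do not bound the change between embryos. The summed level of all 62 members was 3710.5 and 3664.3 CPM in the WT libraries, compared with 3659.9 and 3635.2 CPM in *Phf2* KO, which is 98.9% of WT.

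**Figure D2:**
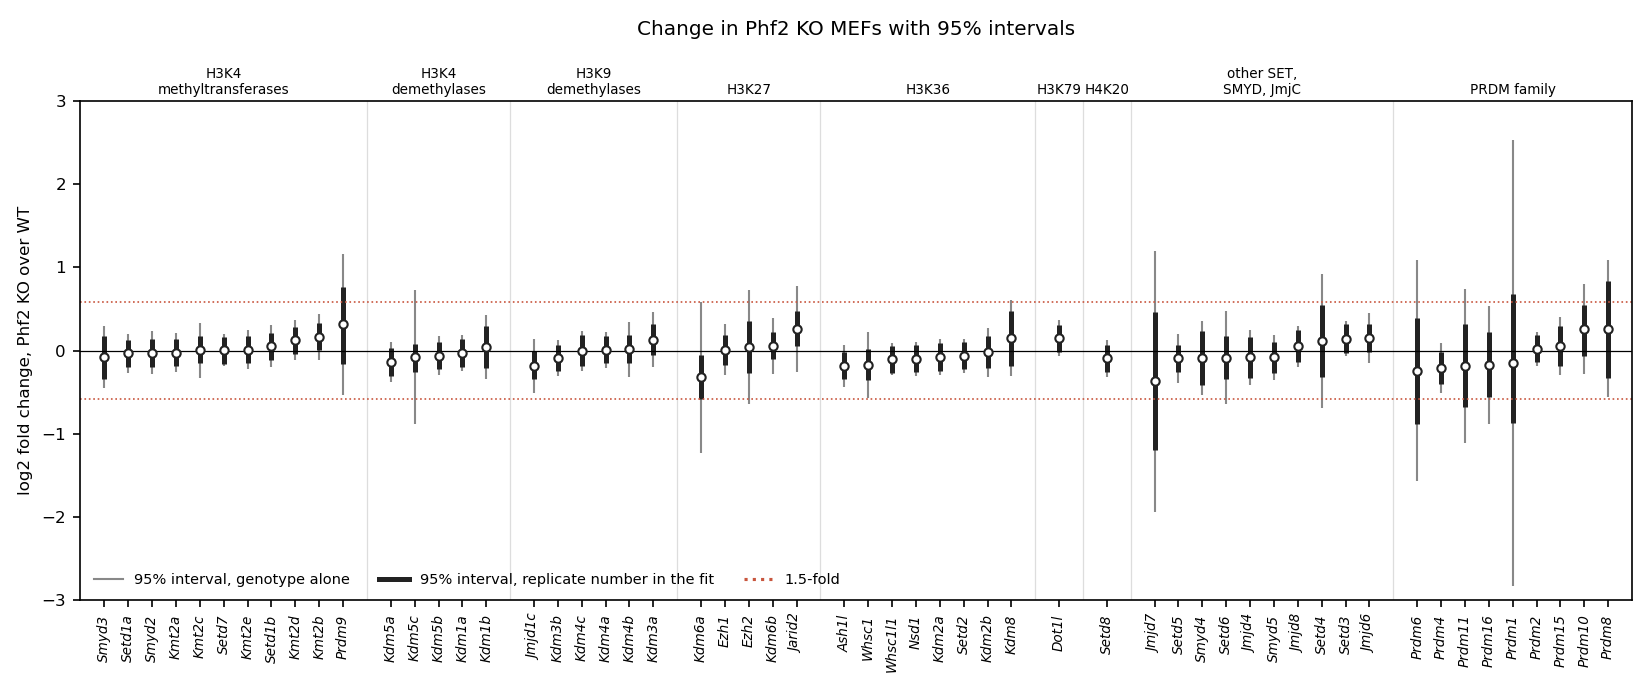
Log2 fold change of *Phf2* KO over WT for 56 members tested, ordered within role groups, with 95% intervals from the fit with genotype alone (thin grey) and with the replicate number added (thick black). Circles are the estimates of the fit with genotype alone, and dotted lines mark 1.5-fold. The estimates lie between -0.37 and 0.31, and the wide intervals belong to members with few reads such as *Prdm1*, *Prdm6* and *Jmjd7* or with unequal replicates such as *Kdm5c*.

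The 11 tested members grouped as H3K4 methyltransferases included 7 with a fold change above 0 and 4 below, and none was called. Role groups were assigned by listing, and enzyme activity was not measured. *Kmt2b*, which encodes a promoter-directed MLL enzyme, had 98.9 and 115.7 CPM in WT and 117.8 and 122.0 CPM in *Phf2* KO. Both KO libraries were above both WT libraries, with a log2 fold change of 0.16 ± 0.11 (SE; edgeR adjusted p = 0.999). *Smyd2*, the most abundant of the group per length, had 53.1 and 55.5 CPM in WT and 56.4 and 50.3 CPM in *Phf2* KO, so its groups overlapped (-0.03 ± 0.10 on the log2 scale). *Prdm9* had the highest log2 fold change of all members, 0.31 ± 0.32, from 2.32 and 2.31 CPM in WT and 2.17 and 3.58 CPM in *Phf2* KO. Only *Phf2* KO replicate 2 stood above the others.

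Among the 5 H3K4 demethylases, 4 had a fold change below 0, the lowest being that of *Kdm5a* at -0.14 ± 0.09, where both KO libraries (52.1 and 52.9 CPM) were below both WT libraries (55.0 and 60.3 CPM). *Kdm5c* is described below with the replicate comparison. Of the 6 tested H3K9 demethylases, 3 were above 0 and 3 below. *Kdm4a* was even across the libraries, with 168.9 and 176.0 CPM in WT and 176.0 and 170.8 CPM in *Phf2* KO (log2 fold change 0.01 ± 0.08, 95% interval -0.21 to 0.22). *Jmjd1c*, a relative of the H3K9 demethylases *Kdm3a* and *Kdm3b*, had 69.7 and 57.2 CPM in WT and 57.2 and 54.2 CPM in *Phf2* KO. WT replicate 1 alone stood above the rest (-0.19 ± 0.13, edgeR adjusted p = 0.999, and 0.213 with the replicate number in the fit).

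In the H3K27 group, *Jarid2* and *Kdm6a* had the largest changes in opposite directions. *Jarid2*, a PRC2 partner with an inactive JmjC domain, had 16.6 and 22.7 CPM in WT and 21.7 and 25.4 CPM in *Phf2* KO. The KO library exceeded the WT library of the same number in both cases, but the groups overlapped. The log2 fold change was 0.26 ± 0.19 (edgeR adjusted p = 0.999), or 0.27 ± 0.11 with the replicate number in the fit (adjusted p = 0.113). *Kdm6a* had 17.1 and 10.4 CPM in WT and 13.47 and 8.57 CPM in *Phf2* KO. It was lower in *Phf2* KO within each number, with a log2 fold change of -0.32 ± 0.34 (edgeR adjusted p = 0.999), or -0.32 ± 0.13 with the replicate number in the fit (adjusted p = 0.130). *Kdm6b* was at 171.1 and 210.4 CPM in WT and 192.7 and 203.2 CPM in *Phf2* KO, and *Ezh1* at 42.7 and 38.6 CPM in WT and 43.4 and 38.5 CPM in *Phf2* KO. Both overlapped between the groups, with log2 fold changes of 0.05 ± 0.13 and 0.01 ± 0.11.

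Of the 8 H3K36 enzymes, 7 had a log2 fold change below 0, and their median was -0.09, compared with 48.8% of all genes below 0 and a median of 0.01. In 5 of them, *Ash1l*, *Kdm2a*, *Nsd1*, *Setd2* and *Whsc1l1*, both KO libraries were below both WT libraries, an order seen in 18.0% of all genes. *Kdm2a*, a CpG-island-binding demethylase, had 173.2 and 169.4 CPM in WT and 158.9 and 165.7 CPM in *Phf2* KO (-0.08 ± 0.08). *Ash1l*, which encodes a methyltransferase and shares part of its span with *Gon4l* on the same strand, had 118.7 and 104.3 CPM in WT and 97.5 and 99.1 CPM in *Phf2* KO (-0.18 ± 0.10). The summed level of the group was 704.5 and 666.3 CPM in WT and 635.9 and 642.8 CPM in *Phf2* KO, or 93.3% of WT. The group pools methyltransferases such as *Ash1l* with demethylases such as *Kdm2a*, so the sum and the shared direction do not describe a single activity. With each other tool, scaling and filter 7 of the 8 stayed below 0, but without WT replicate 1 only 5 did, with a median of -0.03. No member of the group was called with genotype alone, and *Ash1l* was called lower in 1 alternative, the replicate number with scaling by library size.

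*Dot1l*, the H3K79 methyltransferase, was at 69.4 and 68.5 CPM in WT and 79.3 and 73.6 CPM in *Phf2* KO. Both KO libraries were higher, by a log2 fold change of 0.15 ± 0.08 (edgeR adjusted p = 0.999, and 0.330 with the replicate number in the fit). *Setd8*, which monomethylates H4K20, had 92.1 and 99.97 CPM in WT and 88.2 and 92.1 CPM in *Phf2* KO (-0.09 ± 0.08). Of the 10 other SET, SMYD and JmjC proteins, 4 were above 0 and 6 below. *Jmjd6*, a lysyl hydroxylase, had the highest mean RPKM of these over all libraries by exon length (12.5, against 12.4 for *Smyd5*), though not in WT alone or with the longest transcript. It had 52.7 and 58.5 CPM in WT and 57.5 and 66.2 CPM in *Phf2* KO (0.15 ± 0.11), and its groups overlapped. *Jmjd7* had the lowest log2 fold change of all members at -0.37 ± 0.59, but rested on 9 and 26 reads in WT and 10 and 14 reads in *Phf2* KO.

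The 10 tested PRDM genes were divided between 5 above and 5 below 0. *Prdm2*, the most abundant, had 110.8 and 117.4 CPM in WT and 114.0 and 117.3 CPM in *Phf2* KO (0.02 ± 0.08). *Prdm4* had 30.8 and 31.4 CPM in WT and 24.9 and 28.9 CPM in *Phf2* KO, so that both KO libraries were lower, with a log2 fold change of -0.21 ± 0.12 (edgeR adjusted p = 0.999, and 0.197 with the replicate number in the fit). *Prdm10* had 7.22 and 7.48 CPM in WT and 10.1 and 7.49 CPM in *Phf2* KO, a log2 fold change of 0.26 ± 0.20 that came from *Phf2* KO replicate 1. *Prdm8* (1.33 and 1.27 CPM in WT, 1.83 and 1.29 in *Phf2* KO) showed the same picture at 0.26 ± 0.31. *Prdm11* had 1.66 and 2.78 CPM in WT and 1.74 and 2.16 CPM in *Phf2* KO (-0.18 ± 0.35), with overlapping groups.

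Over all 57 members, the libraries of the genotypes did not overlap for 15, or 26.3%, compared with 33.5% of all genes. Both KO libraries were above WT for 6 (10.5%, against 15.5% of all genes) and below for 9 (15.8%, against 18.0%). Comparing the libraries of the same number, 35 members, or 61.4%, had the same direction in both pairs, 21 lower and 14 higher in *Phf2* KO, against 62.7% of all genes. For 6 of the 35, *Dot1l*, *Jmjd6*, *Kdm6a*, *Kmt2b*, *Setd3* and *Whsc1l1*, the ratio exceeded counting error in each pair (10.5% of the members, against 16.1% of all genes). For 4 members it did so in opposite directions (7.02%, against 2.93% of all genes). Reads from PCR copies are not independent molecules, so these intervals cover counting error only.

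The replicate number separated more members than the genotype did. With genotype in the fit, edgeR's quasi-likelihood test called 9 of 57 members between replicates 1 and 2, or 15.8%, against 26.2% of all genes. *Kdm5c*, *Kdm6a*, *Prdm1* and *Whsc1* were higher in replicate 1 and *Jarid2*, *Kdm6b*, *Prdm6* and *Setd6* were among those lower. Without the genotype term 3 members were called, *Kdm5c*, *Kdm6a* and *Prdm1*, against 10.6% of all genes, and DESeq2 called *Kdm5c* and *Kdm6a*, against 10.1%. The libraries of the replicate numbers did not overlap for 30 members, or 52.6%, against 49.6% of all genes. Sex and any other difference between the replicate numbers cannot be told apart here.

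*Kdm5c* and *Kdm6a* are the X-linked members, and both are known to be transcribed from the inactive as well as the active X chromosome in female mice. Their promoters are shown because both genes separated the replicates, and that of *Ezh2* because it differed in direction between the replicate numbers, as described below. Each sequence runs 5′ to 3′ along the gene from 250 bases before to 50 bases after the annotated start (RefSeq, GRCm38.p6). This build differs from mm9, to which the reads were aligned. Capitals mark a YY1 motif (AAGATGGC) in *Kdm5c*, which begins 28 bases into the transcript, and an E2F motif (TTTGGCGC) in *Ezh2*, which begins at base 4.
Kdm5c, chrX:152232977-152233276, plus strand: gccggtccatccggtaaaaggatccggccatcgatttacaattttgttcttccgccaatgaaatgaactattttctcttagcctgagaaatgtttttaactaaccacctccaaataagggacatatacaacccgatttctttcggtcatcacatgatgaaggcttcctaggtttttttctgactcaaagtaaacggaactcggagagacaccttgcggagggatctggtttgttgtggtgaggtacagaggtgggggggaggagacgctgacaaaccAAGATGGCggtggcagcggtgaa
Kdm6a, chrX:18162325-18162624, plus strand: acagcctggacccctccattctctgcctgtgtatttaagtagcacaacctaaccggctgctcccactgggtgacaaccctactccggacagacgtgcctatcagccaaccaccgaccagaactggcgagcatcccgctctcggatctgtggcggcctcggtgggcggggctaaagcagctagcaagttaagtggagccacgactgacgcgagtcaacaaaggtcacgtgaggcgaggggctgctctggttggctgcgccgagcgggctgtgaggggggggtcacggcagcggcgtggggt
Ezh2, chr6:47594981-47595280, minus strand: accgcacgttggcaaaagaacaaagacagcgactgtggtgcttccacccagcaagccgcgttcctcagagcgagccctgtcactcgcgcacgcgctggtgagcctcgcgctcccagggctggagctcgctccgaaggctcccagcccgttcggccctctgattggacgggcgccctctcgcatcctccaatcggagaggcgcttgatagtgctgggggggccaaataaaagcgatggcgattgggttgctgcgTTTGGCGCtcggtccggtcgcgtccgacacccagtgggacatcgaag

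The 3 promoters hold 13, 21 and 31 CpG dinucleotides, compared with a median of 24 over 60 promoters of the 45 members found in the table and of 7 over all 32851 promoters. Both motifs were chosen after the sequences had been seen and were searched on both strands. The YY1 motif occurred in 3 of the 60 member promoters (*Dot1l*, *Kdm5c* and *Smyd5*) and in 2.75% of all promoters, and the E2F motif occurred in 1 (*Ezh2*) and in 0.514%. These letters were not present in the window of *Kdm6a*. The matches are descriptions of sequence, and binding was not measured in these files.

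*Kdm5c*, which removes H3K4 di- and trimethylation, lies at chrX:148667563-148709078 (mm9, plus strand). It had 256.8 and 170.6 CPM in WT and 249.2 and 155.6 CPM in *Phf2* KO replicates 1 and 2. Both replicate 1 libraries were above both replicate 2 libraries, by 1.55-fold, or a log2 difference of 0.63 ± 0.08 (edgeR adjusted p = 2.24e-12). *Phf2* KO over WT gave -0.08 ± 0.31, or -0.09 ± 0.08 with the replicate number in the fit. *Kdm6a*, a demethylase of H3K27 at chrX:17739701-17857062 (mm9, plus strand), was higher in replicate 1 by 1.61-fold, or 0.68 ± 0.13 on the log2 scale (edgeR adjusted p = 3.62e-06), with the values given above. The X-linked genes *Ddx3x* and *Eif2s3x*, which share this mode of expression, had log2 differences of 0.61 ± 0.08 and 0.66 ± 0.12 between the same libraries. Without WT replicate 1 or without *Phf2* KO replicate 2, *Kdm6a* was no longer called, at 0.51 and 0.57, while *Kdm5c* was called in each of 8 alternatives.

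**Figure D3:**
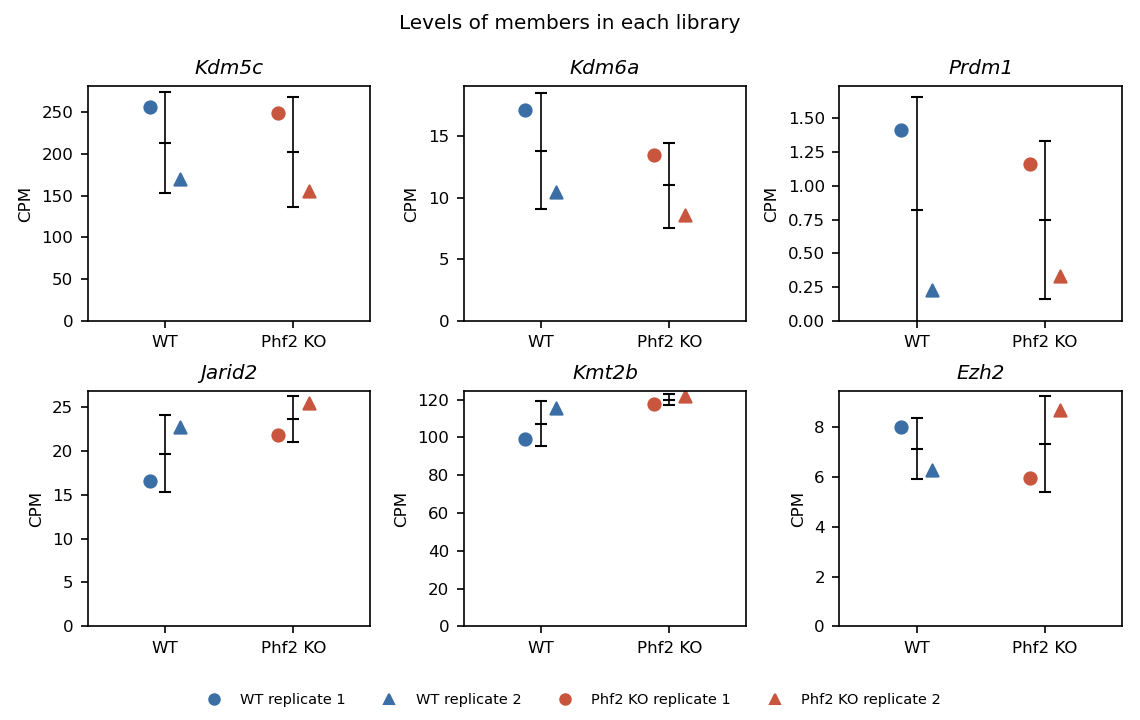
CPM of 6 members in the 4 libraries (circles, replicate 1; triangles, replicate 2), with the mean and SD of each genotype as bars (n = 2; the WT bar of *Prdm1* is cut off at 0). *Kdm5c*, *Kdm6a* and *Prdm1* are higher in replicate 1 in both genotypes, *Jarid2* is lower in replicate 1, *Kmt2b* is higher in both *Phf2* KO libraries, and *Ezh2* changes order between the genotypes.

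*Prdm1*, which encodes the repressor Blimp1 of plasma cells and other lineages, had 1.41 and 0.231 CPM in WT and 1.16 and 0.333 CPM in *Phf2* KO, from 34, 6, 24 and 8 reads. It was higher in replicate 1 by 4.53-fold, or 2.18 ± 0.42 on the log2 scale (edgeR adjusted p = 4.03e-06; DESeq2 adjusted p = 0.132). The macrophage markers moved the same way, as given above, with a median log2 difference of 2.06 over the 14 genes, from 11.3 and 1.93 CPM for *Fcgr1* to 1325 and 315 CPM for *Lyz2* in WT. Their part in the result was not tested, and in bulk RNA fewer cells of a type and less RNA per cell cannot be told apart. Between genotypes, *Prdm1* had a log2 fold change of -0.15 with a 95% interval from -2.83 to 2.54.

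The other calls between the replicate numbers described here were smaller or rested on few reads. *Jarid2* was lower in replicate 1 by 0.34 ± 0.11 on the log2 scale (edgeR adjusted p = 0.0107). *Setd6*, a methyltransferase of the NF-κB subunit RelA, had 11.3 and 14.7 CPM in WT and 10.8 and 13.7 CPM in *Phf2* KO, a log2 difference of -0.37 ± 0.13. *Prdm6* had 0.871 and 1.62 CPM in WT and 0.724 and 1.37 CPM in *Phf2* KO (-0.90 ± 0.33), from between 15 and 42 reads, and its log2 fold change between genotypes was -0.24 ± 0.50. *Whsc1*, an H3K36 dimethyltransferase, had 42.0 and 32.7 CPM in WT and 34.2 and 32.0 CPM in *Phf2* KO (0.23 ± 0.09). WT replicate 1 stood above the other libraries, and without it the difference was not called. *Kdm6b* was lower in replicate 1 by 0.19 ± 0.08 (edgeR adjusted p = 0.0986). Each of these 5 was called in at most 3 of 8 alternatives.

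**Figure D4:**
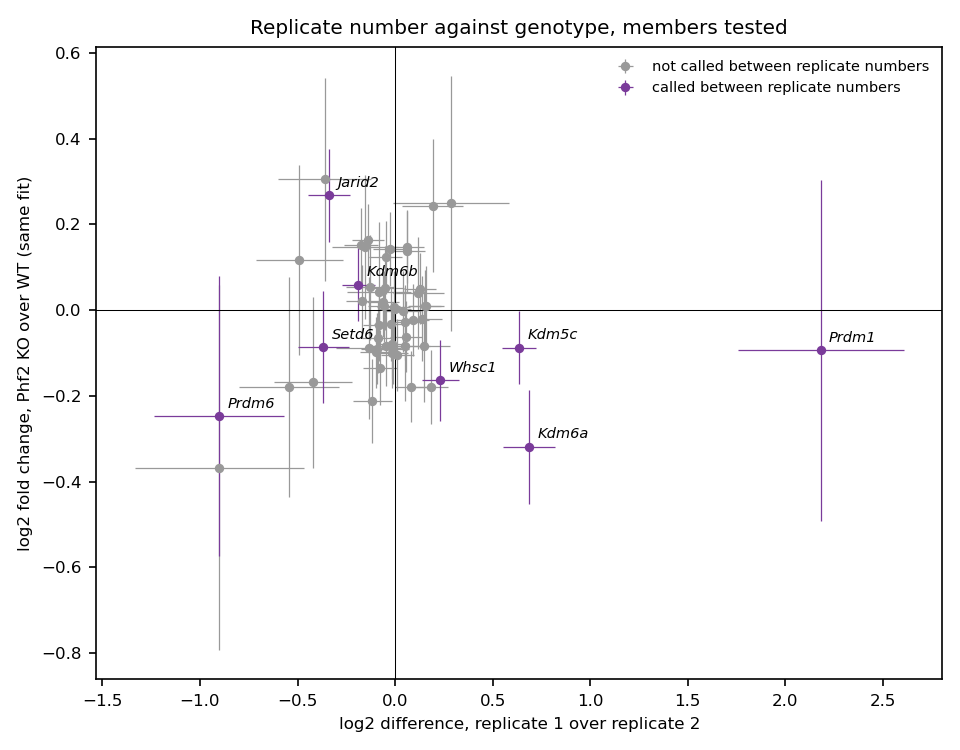
Log2 difference of replicate 1 over replicate 2 (horizontal) against the log2 fold change of *Phf2* KO over WT from the same fit (vertical) for 56 members tested, with standard errors. The 8 members shown that were called between the replicate numbers are purple and named. *Prdm1* at 2.18, *Kdm6a* at 0.68 and *Kdm5c* at 0.63 lie far to the right, and *Prdm6* at -0.90 lies to the left.

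*Ezh2* had 8.01 and 6.28 CPM in WT and 5.98 and 8.69 CPM in *Phf2* KO, so that *Phf2* KO was lower in replicate 1 and higher in replicate 2. The log2 fold change was 0.04 ± 0.26 (95% interval -0.65 to 0.73). Of 23 proliferation genes, 14 followed the same order, with a ratio below 1 in replicate 1 and above 1 in replicate 2. The share of all genes with this order was not counted, and 62.7% of all genes had the same direction in both pairs. The summed level of the 23 genes was 458 and 316 CPM in WT and 394 and 341 CPM in *Phf2* KO. Of the 23, 16 were called higher in replicate 1, against 13.6% of all genes. For example, *Mki67* had 44.4 and 16.6 CPM in WT and 28.2 and 19.3 CPM in *Phf2* KO. Between genotypes, edgeR with the replicate number in the fit called 2 of the 23 lower in *Phf2* KO (*Mcm2* and *Mcm6*), against 5.20% of all genes. It called 0 higher, against 5.77%. The median log2 difference of replicate 1 over replicate 2 was 0.47 over the list. That of *Ezh2* was -0.08 ± 0.16 and was not called. The part of the proliferation genes in the values of *Ezh2*, *Setd8* and *Whsc1* was not tested.

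The subunits that carry these enzymes and further enzymes under other symbols gave a similar picture by genotype. Of 39 listed symbols 35 were in the table. The others, *Mll1*, *Mll2*, *Mll3* and *Mll5*, are older names of the members *Kmt2a*, *Kmt2d*, *Kmt2c* and *Kmt2e*. All 35 were tested and 0 were called by edgeR with genotype alone, with 1 at an unadjusted p under 0.05. The median log2 fold change of the 35 was -0.03. With the replicate number in the fit 2 were called, against 11.0% of all genes. *Wdr82*, a subunit of the Setd1a and Setd1b complexes, fell from 69.2 and 63.9 CPM in WT to 55.1 and 57.5 CPM in *Phf2* KO (-0.24, edgeR adjusted p = 0.0590), a call not made by DESeq2 with the same term (adjusted p = 0.593). *Suv420h2*, which trimethylates H4K20, rose from 26.7 and 36.9 CPM to 38.8 and 47.2 CPM (0.44, edgeR adjusted p = 0.000138, DESeq2 adjusted p = 0.0811). The core PRC2 subunits *Eed* and *Suz12* and the shared COMPASS subunits *Wdr5*, *Ash2l*, *Rbbp5* and *Dpy30* had log2 fold changes between -0.02 and 0.07 and were not called. *Rbbp4* and *Rbbp7*, the histone-binding subunits of PRC2 and other complexes, were at -0.16 and -0.17, with both KO libraries below both WT libraries, and were not called either (edgeR adjusted p = 0.265 and 0.249 with the replicate number in the fit).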

How the data were processed

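RNA-seq counts from 2 WT and 2 *Phf2* KO libraries of quiescent primary MEFs were analysed. Per the labels and the paper's methods, the authors used Trim Galore for trimming, Bowtie2 to discard rRNA, STAR for alignment to mm9 and featureCounts for stranded counting by gene. The authors deposited raw counts that were not normalized. Tool versions are not given in the sources used here. The authors' DESeq2 comparison table (fold changes and p-values) was not used.

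Counts were filtered with filterByExpr, scaled by TMM and tested with the quasi-likelihood method of edgeR 4.0.16 in R 4.3.3 (~genotype), at 0.1 after Benjamini-Hochberg adjustment of 13668 genes. The comparison of replicate numbers had genotype in the fit and 1 residual degree of freedom. Intervals are 95%. DESeq2 1.42.0, limma 3.58.1, other scaling, filters, the replicate block and left-out libraries were alternatives. The scripts were tested on simulated counts. CPM are TMM-scaled, and RPKM use exon lengths of GENCODE M1 (mm9), on which *Jmjd7* was not placed. Named are members called, the 6 largest changes in each direction, the most abundant of each role group, X-linked members, *Ezh1* and *Ezh2*, and others given as examples. Figures used Python 3.11.15 and Matplotlib 3.10.9. Members, lists and tests were chosen with earlier results of these data known. The values of 1 member, which is included in the counts, are not reported here.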

Additional observations from a re-analysis of the deposited data

Results flagged for a closer look

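For 4 members the log2 ratio of *Phf2* KO to WT had opposite signs in the libraries of replicate 1 and of replicate 2, each beyond counting error. *Ezh2* had -0.42 in replicate 1 and 0.47 in replicate 2. *Kmt2c*, an enhancer-directed H3K4 methyltransferase, had -0.15 and 0.17. *Kmt2e*, an MLL family member, had -0.08 and 0.10. *Kdm4b*, an H3K9 demethylase, had 0.16 and -0.12. The difference between the replicate numbers was not tested for these genes, since each number holds 1 library per genotype, and counting error covers no difference between cultures.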

How the results depend on the processing

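The genotype comparison called 1 of 13668 genes, 64 with DESeq2, 0 with limma-voom (575 at an unadjusted p under 0.05), 0 at a threshold of 0.05 or 0.01, and 0 with each library left out (224 to 746 at an unadjusted p under 0.05). The library left alone in its group was then assumed to vary like the others. The labels do not say whether equal replicate numbers pair the libraries. Across 11556 genes with at least 50 counts on average, the difference between replicates 1 and 2 in WT had a Pearson correlation of 0.854 with that in *Phf2* KO. With the replicate block, 1500 genes were called (1116 at 0.05, 634 at 0.01), 297 with DESeq2, 1371 with limma-voom, 1611 with RLE size factors and 1613 with library size alone. The count of members called was 0 in every alternative except the block with RLE size factors, 1 (*Jarid2*, higher), and the block with library size alone, 1 (*Ash1l*, lower). The replicate comparison called 3580 genes and 9 members, 1445 and 3 without the genotype term, 1361 and 2 with DESeq2, and from 1092 to 1559 genes and from 2 to 5 members with 1 library left out. The log2 fold change between genotypes turned in 4 cases: *Kdm4b* to -0.12, *Prdm1* to 1.66 and *Whsc1* to 0.029 without WT replicate 1, and *Kmt2c* to -0.15 without WT replicate 2. With 1 library left out, *Kdm4b* ranged up to 0.18, *Kmt2c* up to 0.18, *Prdm1* down to -1.28 and *Whsc1* down to -0.34. In a further 57 of 740 values, over 32 members, the sign differed but lay within 1 standard error of 0 in both fits, so the direction of these members is not settled. Members below 0 numbered 31, from 29 to 36 with other tools, scalings, filters or the block, and from 28 to 34 with 1 library left out. The cause of these shifts was not tested. With the longest transcript as length, 37 rather than 33 members reached 5 RPKM and the *Ezh1* to *Ezh2* ratio in WT was 3.62 rather than 4.78, that of *Kdm2a* to *Kdm2b* 4.29 rather than 9.17 and that of *Kdm1a* to *Kdm1b* 7.27 rather than 4.76. Too few reads to test were found for 5 members, and the part of sequencing depth in this was not tested.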

Other observations

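Of the 35 tested partner subunits and enzymes under other symbols, 9 were called between the replicate numbers by edgeR with genotype in the fit, 3 higher and 6 lower in replicate 1, against 26.2% of all genes. *Mecom*, which encodes the PRDM protein also known as Prdm3, had 5.68 and 10.3 CPM in WT and 5.41 and 8.99 CPM in *Phf2* KO replicates 1 and 2, a log2 difference of -0.80 (adjusted p = 8.67e-06). The PRC2 accessory subunits *Phf1* and *Phf19* went in opposite directions. *Phf1* had 43.1 and 53.9 CPM in WT and 47.6 and 60.5 CPM in *Phf2* KO (-0.34), and *Phf19* had 3.40 and 1.35 CPM in WT and 2.12 and 1.66 CPM in *Phf2* KO (0.88). *Rcor1* was higher and its relative *Rcor2* lower in replicate 1, at 0.26 and -0.40.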
